A study of Caenorhabditis elegans with 27 samples.

Results

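The deposited tables name 67 genes whose name begins with his-, and these were followed through all 9 combinations of RNA source and RNAi treatment. They were chosen by name alone, out of 45461 features counted. Typed by the length of the coding sequence, they are 15 genes of H2A, 16 of H2B, 19 of H3 and 16 of H4, the core histones, and also his-24, which encodes the linker histone H1.1 and is a member by name only. The animals were Caenorhabditis elegans hermaphrodites of strain N2, the wild type, fed from synchronised larvae on bacteria that carried the empty vector (control RNAi) or a construct against gld-2 or gld-4, and harvested whole as young adults a day after mid-L4. GLD-2 and GLD-4 are cytoplasmic poly(A) polymerases, enzymes that lengthen the poly(A) tails of mRNAs outside the nucleus. Each RNAi treatment had 3 libraries of whole-animal RNA (input), 3 of the non-polysomal part of a sucrose gradient (NP) and 3 of its polysomal part (P). RNAi by feeding lowers a gene's product and does not delete it, the whole animals hold somatic cells, germ cells and embryos together, and per the study gld-2(RNAi) animals are sterile while gld-4(RNAi) animals are fertile. The comparisons ask which mRNAs depend on either enzyme for their level and for their place on polysomes. Fewer cells of a type and less RNA per cell cannot be told apart in such libraries.

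Core histones wrap DNA into nucleosomes, and a linker histone binds the DNA where it enters and leaves the nucleosome. Most core histone genes of animals are replication-dependent: they lie in clusters, lack introns, are used in S phase, and their mRNAs end in a stem-loop bound by the protein CDL-1 (SLBP) in place of a poly(A) tail. Replacement variants such as the H3.3-type proteins are made from genes with introns, on polyadenylated mRNAs, in and out of S phase. All libraries were made from poly(A)-selected RNA, and only reads with a single place in the genome were counted, so mRNAs without a tail and nearly identical gene copies were both at a disadvantage. The part of either in the levels was not tested.

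In the gene annotation 8 of the 67 genes have an intron and an annotated 3′UTR (his-24, his-35, his-37, his-41, his-57, his-71, his-72 and his-74), and 59 have no intron and no annotated 3′UTR. A mean of at least 100 normalised counts over the 9 input libraries, the limit for an expressed gene, was reached by 13 members. Of these, 7 have introns, and the other 6 (his-48, his-58, his-60, his-66, his-67 and his-68) do not. Of the 13, 3 had an RNAi group with an input mean under 100 and a control mean above it. They are his-58 and his-66, low in gld-4(RNAi), and his-67, low in both RNAi groups. Another 37 lay between 10 and 100 counts and are given from a separate fit with the lower limit, and 17 stayed below 10, the lowest at 3.51. Of the 50 at or above 10, 12 had the mean of at least 1 input group under that limit, and for 7 of these it was the control mean, so those 7 passed through an RNAi group in which they were higher. The intron genes other than his-57 held 86.1% to 86.6% of all his- counts in control input. His- genes together took 0.123% to 0.177% of the counts of these libraries.

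Per kilobase of annotated exon, in mean normalised counts of control input, the order began with the H3.3-type genes his-72 at 12033 and his-74 at 8994, followed by his-24 at 4899. The intronless H2A gene his-68 stood at 2055, the H2A variant his-35 at 1941, the H4 gene his-37 at 1749 and the H2B gene his-41 at 1142. The H3.3-type gene his-71 reached 587. Intronless members outside chromosome I stayed at or below the 850 of his-60. On that scale the 3 control inputs overlapped for his-72 (9114 to 14354) and his-74 (7116 to 11054), and for his-68 (1499 to 2580), his-35 (1804 to 2151) and his-37 (1551 to 2004). By contrast his-74 lay above his-24 (3572 to 6206) in every library, his-24 above his-68, and his-37 above his-41 (909 to 1299).

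The 59 intronless genes and his-57 fall into clusters, here defined by gaps under 20000 bases. A pair lies on chromosome I (his-67 and his-68), 13 genes on chromosome II, 20 in 4 clusters on chromosome IV, 22 in 4 clusters on chromosome V and a pair on chromosome X (his-38 and his-40), while the H3.3-type gene his-70 stands alone on chromosome III. The clusters differed in level. The chromosome II genes had means of 5.70 to 29.6 counts over the input libraries, the 16 genes of 3 chromosome IV clusters 48.2 to 178, and the chromosome V genes without introns 3.62 to 34.4. That 3 chromosome IV clusters are grouped apart from the 4th was decided after values were seen, so the groups serve as a description. Members of a cluster and type are close copies, so their counts are not independent measurements of separate mRNAs. Another annotated gene overlaps 10 members, among them his-24, his-37, his-41, his-57 and his-72. Whether the counting used strand is not settled by the sources used here, so reads of the overlapping genes could be shared.

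Libraries held 12160686 to 18132556 counts. The RNAi targets checked the labels: gld-2 had 54.5 to 138 normalised counts in gld-2(RNAi) input against 782 to 1477 in control, and gld-4 had 127 to 281 in gld-4(RNAi) input against 1634 to 2721. In gld-2(RNAi) the gld-4 mRNA was lower too, at 931 to 1162 counts in NP against 2558 to 3489 in control. In P it had 933 to 1319 against 2010 to 2776, and in input 906 to 1790, which overlaps with control. Replicate 1 stood apart in each RNAi treatment. Over the 78 sperm genes listed, control input summed to 25300 counts in replicate 1 and to 7700 and 9120 in the others, gld-2(RNAi) to 137000 against 64400 and 74200, and gld-4(RNAi) to 54100 against 11000 and 10800. Over 10 early embryonic genes that are switched on from the zygotic genome, gld-4(RNAi) input summed to 18 counts in replicate 1 against 162 and 171, control to 122, 155 and 169, and gld-2(RNAi) to 22.2, 31.1 and 43.1. Nothing in the labels says that the 3 libraries of a group came from separate cultures, so the p-values measure only the spread between these libraries.

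With gld-2(RNAi), the linker histone gene his-24, the H3.3-type gene his-72 and the H4 gene his-60 fell in input, by 15.2, 2.99 and 2.34 times, and the H3.3-type gene his-70, measured at a lower level, rose. Calls needed a difference of 2-fold or more and an adjusted p no higher than 0.05 (edgeR's quasi-likelihood test, Benjamini-Hochberg adjustment over all 7418 expressed genes, here and below unless stated). By this rule 3 of 13 members fell and 0 rose, beside 12.2% of all expressed genes that fell and 8.22% that rose. The members' median log2 change was -0.01, that of all genes 0.03. With scaling to library size alone the median of all genes moved to -0.16 and the calls among them from 904 lower and 610 higher to 1231 and 432, while the members called stayed at 3 lower and 0 higher. The medians moved to -0.11 in NP and -0.16 in P of gld-2(RNAi).

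The his-24 mRNA had 3297, 4540 and 5728 normalised counts in control input and 103, 313 and 403 in gld-2(RNAi). The groups lie far apart, and the lowest library is replicate 1. The fitted log2 change was -3.93 (SE 0.46, n = 3 and 3, edgeR adjusted p = 0.001025), a 15.2-fold reduction. For his-72, one of the H3.3-type genes, the control inputs had 5815, 8059 and 9158 counts and those of gld-2(RNAi) 2208, 2041 and 2678. It fell 2.99-fold (log2 -1.58, SE 0.19, edgeR adjusted p = 0.001136), and all libraries of gld-2(RNAi) were below all controls. The other H3.3-type gene at such a level, his-74, had 4127, 5112 and 6411 counts in control and 2584, 2570 and 3755 in gld-2(RNAi). Its log2 value was -0.67 (SE 0.20, edgeR adjusted p = 0.029240), past the p limit but under 2-fold. The least abundant of the 3, his-71, had 238, 353 and 450 counts in control and 237, 261 and 298 in gld-2(RNAi). Those ranges overlap, and its log2 value was -0.24 (SE 0.26, edgeR adjusted p = 0.490340). Differences between members in their response were not tested.

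**Figure D1:**
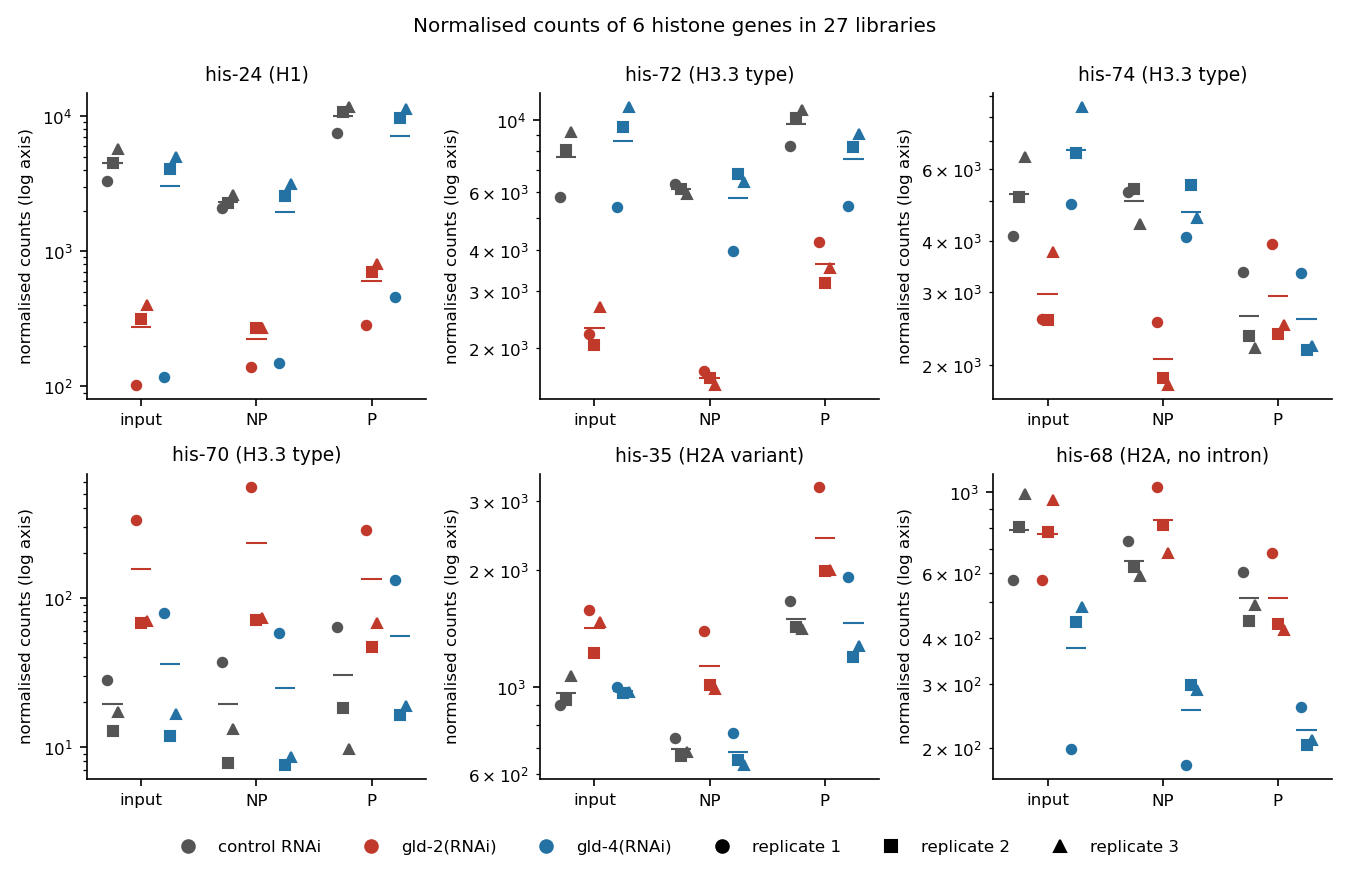
Normalised counts (y axis, logarithmic) of 6 his- genes in input, NP and P libraries (x axis). Colours give the RNAi treatment, marker shapes the replicate number, and bars the mean of 3 libraries; input and gradient libraries were scaled separately. The gld-2(RNAi) inputs of his-24 (103 to 403) lie below all control inputs (3297 to 5728), and the lone low gld-4(RNAi) library (116) is replicate 1.

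Among the intronless genes, the H4 gene his-60 was the member called in input. It had 218, 257 and 321 counts in control and 90.9, 93.3 and 123 in gld-2(RNAi), a 2.34-fold reduction (log2 -1.22, SE 0.24, edgeR adjusted p = 0.006444) with no overlap between the groups. The H2B genes his-48, his-58 and his-66 and the H2A gene his-68 lay between -0.01 and 0.11 on the log2 scale, none of them past the p limit. The H4 gene his-67 had 113, 186 and 192 counts in control and 83.8, 66.0 and 109 in gld-2(RNAi), at -0.78 (SE 0.31, edgeR adjusted p = 0.078857), and was called only without replicate 1 of both groups (-1.03, SE 0.21). In the opposite direction, his-35 went from 899, 930 and 1071 counts to 1574, 1228 and 1465, a log2 change of 0.72 (SE 0.16, edgeR adjusted p = 0.009540). For his-37 the values were 860, 665 and 726 against 1407, 1017 and 1130, a log2 change of 0.83 (SE 0.19, edgeR adjusted p = 0.012010). Neither group of values overlaps with its control, and both changes are under 2-fold.

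The his-70 mRNA, which codes for another H3.3-type protein, rose in gld-2(RNAi). It had 28.04, 12.9 and 17.1 counts in control input and 333, 67.9 and 69.95 in gld-2(RNAi), and it passed the lower limit in all 3 input groups. In the fit with that limit the log2 change was 3.06 (SE 0.76, edgeR adjusted p = 0.018475), or 8.34-fold. Replicate 1 of gld-2(RNAi) is far above the other two, and without replicate 1 of both groups the log2 change was 2.16 (SE 0.33). The call was kept in 4 of 6 fits that left out a library. In gld-4(RNAi) input his-70 had 79.4, 11.8 and 16.6 counts, so that replicate 1 was above all controls, replicate 3 within their range and replicate 2 just below it. The his-70 counts and the summed sperm genes moved together over the 9 input libraries: the highest library of both is replicate 1 of gld-2(RNAi), and the 4 libraries with sperm sums of 7700 to 11000 are the 4 with under 20 counts of his-70. Of 54 sperm genes tested, 52 were called higher in gld-2(RNAi) input. Their part in the his-70 result was not tested.

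The his-24 values moved with the early embryonic genes. All 4 input libraries with sums of 18 to 43.1 counts over those genes had 103 to 403 counts of his-24, and the other 5, with sums of 122 to 171, had 3297 to 5728. Replicate 1 of gld-4(RNAi) is among the low libraries at 116, in contrast to 4077 and 4992 in replicates 2 and 3. The same library pattern was found in NP and P, where the counts of gld-4(RNAi) were 149, 2559 and 3146, and 458, 9764 and 11271. Of the 10 early embryonic genes summed, 0 reached a mean of 100 counts in input and 4 reached 10, so the sums rest on few counts. Of those 4 genes, 2 were called lower in gld-2(RNAi) input, at log2 values from -5.91 to -0.10 over the 4. The part of embryos in the his-24 result was not tested.

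**Figure D2:**
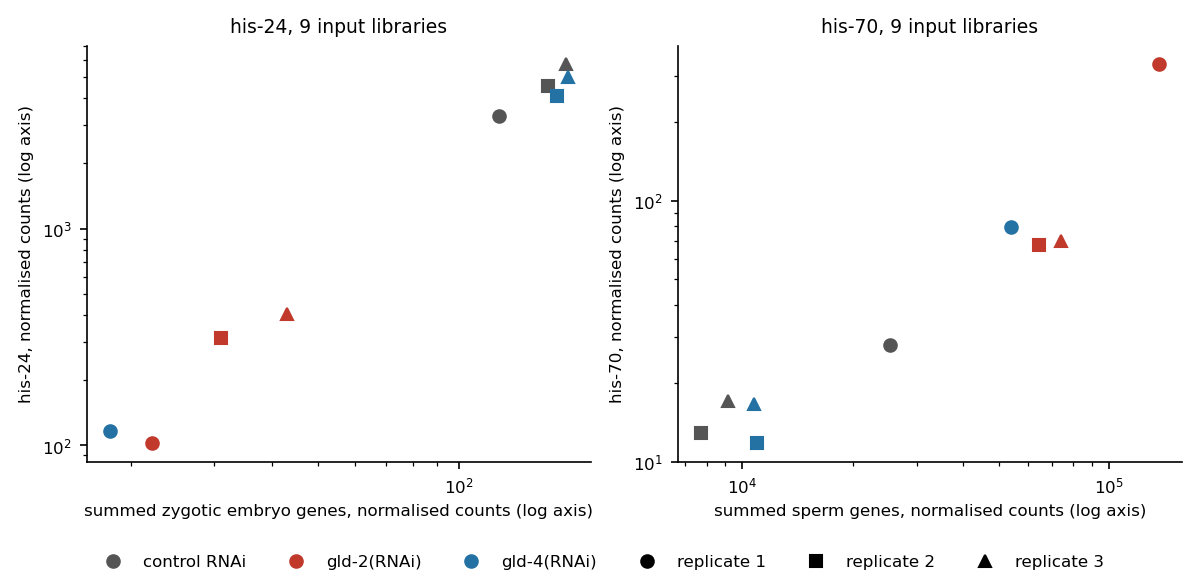
Left, his-24 against the summed counts of 10 early embryonic genes, and right, his-70 against the summed counts of 78 sperm genes, each in the 9 input libraries (normalised counts, both axes logarithmic). Points are libraries, colours the RNAi treatment and shapes the replicate number. Replicate 1 of gld-4(RNAi) sits with the gld-2(RNAi) libraries on the left (116 counts of his-24) and near gld-2(RNAi) replicates 2 and 3 on the right (79.4 counts of his-70).

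The lower limit brought 50 members into the gld-2(RNAi) input comparison, of which 3 fell and 2 rose, beside 11.9% and 12.1% of 12173 genes. Besides his-70, the member called higher was the H3 gene his-42 of the chromosome II cluster, with 2.44, 3.96 and 1.80 counts in control and 11.1, 5.66 and 10.5 in gld-2(RNAi) (log2 1.71, SE 0.55, edgeR adjusted p = 0.046055). It passed the limit only through the RNAi groups in which it was high, and the call was kept in 1 of 6 fits that left out a library. Of 16 genes in 3 chromosome IV clusters, 13 had a negative value, with his-60 the only one called, and the median was -0.39.

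The his-24 and his-72 mRNAs fell in both gradient fractions of gld-2(RNAi) as well, and his-74 fell in NP. In NP 3 of 13 members fell and 0 rose (11.3% and 8.88% of all genes), and in P 2 fell and 0 rose (8.68% and 5.42%). The his-24 mRNA fell 8.86-fold in NP (log2 -3.15, SE 0.29, edgeR adjusted p = 0.000266) and 16.2-fold in P (log2 -4.02, SE 0.45, edgeR adjusted p = 0.002039). In NP, his-72 had 6373, 6145 and 5917 counts in control and 1700, 1623 and 1547 in gld-2(RNAi), which is a log2 change of -1.71 (SE 0.07, edgeR adjusted p = 4.4e-05). In P it fell by 1.37 on the log2 scale (SE 0.17, edgeR adjusted p = 0.002875), from 8309, 10093 and 10667 counts to 4220, 3156 and 3509. The his-70 mRNA was called in NP by the fit with the lower limit (log2 3.60, SE 1.07, edgeR adjusted p = 0.032444), where replicate 1 had 552 counts and the others 71.7 and 73.7. In P its value was 2.08 (SE 0.96, edgeR adjusted p = 0.145230). The H4 gene his-64, with 7.03, 10.95 and 4.52 counts in gld-2(RNAi) against 25.04, 16.1 and 29.9 in control, was lower in P alone by that fit (log2 -1.69, SE 0.46, edgeR adjusted p = 0.035094), a call kept in 1 of 6 fits with a library left out. At the lower limit 3 of 50 fell and 1 rose in NP, beside 12.5% and 13% of genes, and 3 fell and 0 rose in P, beside 9.39% and 9.23%.

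The P and NP values of his-74 went different ways. In NP it had 5271, 5371 and 4398 counts in control and 2548, 1859 and 1789 in gld-2(RNAi), a log2 change of -1.07 (SE 0.14, edgeR adjusted p = 0.001062). In P the same gene had 3356, 2346 and 2192 counts in control and 3933, 2382 and 2493 in gld-2(RNAi), with overlapping ranges and a log2 value of 0.22 (SE 0.24, edgeR adjusted p = 0.512390). Its P/NP ratio, tested by an interaction term fitted to 12 libraries, rose by 1.23 on the log2 scale (SE 0.31, edgeR adjusted p = 0.041799). It was the only one of 13 members with a called P/NP change in gld-2(RNAi), beside 0.499% of all genes with a higher and 0.499% with a lower ratio, and the median change of all genes in that test was -0.14. The call was kept in 1 of 6 fits with the NP and P libraries of 1 replicate left out, at log2 values of 1.12 to 1.41 and adjusted p up to 0.2218, and without replicate 1 of both groups the value was 1.42 (SE 0.12). That fit did not pair same-numbered NP and P libraries. With these paired as a block, his-74 was called at 1.22 (SE 0.14, edgeR adjusted p = 0.000332). Calls among all genes were then 52 higher and 200 lower, in place of 37 and 37. DESeq2 without the block also called his-74 (log2 1.31, SE 0.35, DESeq2 adjusted p = 0.00295). For his-72, which fell in both fractions, the interaction was 0.28 (SE 0.18, edgeR adjusted p = 0.419790).

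With gld-4(RNAi) none of the expressed genes with introns was called in input, NP or P. In input 0 of 13 members were called, beside 0.984% of genes that fell and 0.391% that rose, and 4 members had an unadjusted p under 0.05. DESeq2 called 1. The values of his-72 were 5406, 9502 and 10921 counts against 5815, 8059 and 9158 in control (log2 0.14, SE 0.27). Those of his-74 were 4913, 6555 and 8478 against 4127, 5112 and 6411 (log2 0.33, SE 0.23). For his-24 the fit gave -0.59 with an SE of 1.01, as the 3 libraries spanned 116 to 4992 counts, and without replicate 1 of both groups -0.25 (SE 0.11). In NP the H2B gene his-41 and the H4 gene his-37 passed the p limit under 2-fold, at 0.71 (SE 0.11, edgeR adjusted p = 0.008697) and 0.55 (SE 0.12, edgeR adjusted p = 0.021073).

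Of the 13 expressed members, those that fell in gld-4(RNAi) were the chromosome I pair in NP and his-68 of that pair in P. The H2A gene his-68 had 575, 801 and 991 counts in control input and 199, 442 and 487 in gld-4(RNAi), without overlap and at a log2 value of -1.09 (SE 0.35, edgeR adjusted p = 0.085121). With the replicate number as a block, since same-numbered libraries deviated together, the log2 change was -1.14 (SE 0.14, edgeR adjusted p = 0.001308) and the gene was called. In NP 2 of 13 members fell and 0 rose, beside 0.566% and 0.876% of all genes, and both are this pair. Of the pair, his-67 passed the limit of 100 only through control input. Its input means were 164 in control, 86.4 in gld-2(RNAi) and 99.6 in gld-4(RNAi), so its fall carries less weight. The his-68 mRNA had 736, 626 and 589 counts in control NP and 180, 297 and 288 in gld-4(RNAi), a 2.28-fold reduction (log2 -1.19, SE 0.17, edgeR adjusted p = 0.006639). Its neighbour his-67, an H4 gene, had 180, 167 and 160 counts against 38.8, 90.8 and 62.2 (log2 -1.25, SE 0.32, edgeR adjusted p = 0.031777). In P 1 member fell and 0 rose (0.243% and 0.337% of all genes): his-68 had 605, 444 and 492 counts against 259, 204 and 211 (log2 -1.09, SE 0.17, edgeR adjusted p = 0.039825). The values of his-67 in P were 51.5, 63.2 and 43.4 against 13.3, 18.1 and 11.2 (log2 -1.78, SE 0.40, edgeR adjusted p = 0.066728), also without overlap, and with the replicate block it was called (edgeR adjusted p = 0.02758). The call of his-68 in P was lost in 5 of 6 fits with a library left out, and that of his-67 in NP in 4 of 6, while that of his-68 in NP was kept in 6 of 6. Without replicate 1 of both groups the his-68 values were -1.01 in input, -0.97 in NP, now under 2-fold, and -1.10 in P. In gld-2(RNAi) the his-68 values were 575, 777 and 953 in input and 1029, 811 and 683 in NP, with log2 values of 0.10 (SE 0.23) and 0.58 (SE 0.16).

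Summed over its 13 genes, the chromosome II cluster had 135, 115 and 106 counts in control input and 306, 272 and 260 in gld-4(RNAi), and 208, 137 and 193 in gld-2(RNAi). The gld-4(RNAi) libraries lie above all controls in these sums. Of the 9 genes tested at the lower limit, 5 had a control mean under 10 counts and so passed only through the RNAi groups. The other 4 had log2 values of 1.03 to 1.57 in gld-4(RNAi), none of them called, when the median of all 12173 genes was 0.01. Among these 4 were the H3 genes his-9, with 13.4, 9.89 and 8.08 counts in control and 37.04, 34.4 and 28.6 in gld-4(RNAi), and his-25, with 23.2, 17.8 and 13.5 against 53.98, 36.5 and 42.4. The gene called was his-42, one of the 5, at 2.44, 3.96 and 1.80 counts against 19.1, 18.3 and 19.4 (log2 2.64, SE 0.54, edgeR adjusted p = 0.044682), 1 of 50 members beside 0.197% of genes that rose, and 0 members fell (0.928% of genes). Its call was kept in 1 of 6 fits with a library left out. In NP and P of gld-4(RNAi) none of the 9 was called, and in P the summed counts of replicates 2 and 3 were 143 and 142 against 121 and 126 in the same replicates of control.

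On chromosome IV, all 16 genes of the 3 clusters with his-45 to his-48 and his-55 to his-66 had negative values in gld-4(RNAi), in input (median -0.56), NP (-0.69) and P (-0.92). The medians of all 12173 genes were 0.01, 0.06 and 0.05. The 4th cluster was set apart after values were seen. Its 2 tested genes were at -0.02 and 0.49 in input, -0.21 and 0.07 in NP and -0.33 and -0.18 in P. The summed counts of the 16 genes were 1278, 1657 and 2014 in control input and 718, 1307 and 1435 in gld-4(RNAi), which overlap. In NP the sums were 2329, 2459 and 1824 against 918, 1742 and 1122, and in P 780, 609 and 597 against 466, 332 and 296, without overlap. Gene by gene, the test called only the H2A gene his-61 in NP (log2 -1.16, SE 0.24, edgeR adjusted p = 0.026596), which made 3 of 50 members lower there, beside 0.871% of genes, and 0 higher, beside 0.764%. In P 1 member fell at the lower limit (0.230% of genes), which is his-68 again, and 0 rose (0.131%). Without replicate 1 of both groups, 13 members fell in P, 9 of them from these 16 genes, but over all 12173 genes the calls then moved from 28 lower and 16 higher to 83 and 261. Chromosome V was similar in sign: all 11 tested genes had negative values in NP (median -0.65) and P (-0.82) of gld-4(RNAi), none of them called, and 8 of 11 did in input. Their counts were low, and 7 of the 11 had the mean of at least 1 input group under 10. For his-2, his-4, his-17, his-27 and his-49 it was the gld-4(RNAi) mean alone. Those genes passed only through groups in which they were higher, so their negative signs carry little weight. All 22 clustered genes of chromosome V summed to 235, 191 and 203 counts in control P and 154, 124 and 107 in gld-4(RNAi) P. As close copies, the genes of a cluster do not give independent signs. The summed S-phase genes, whose products include the MCM helicase and ribonucleotide reductase, were 58200, 62500 and 64800 in control P and 33800, 41000 and 45500 in gld-4(RNAi) P. In input they were 66600, 75000 and 78900 against 64100, 94200 and 96300. In NP the S-phase sums were 81000, 84400 and 74100 in control against 52800, 77500 and 74200 in gld-4(RNAi), which overlap, as those of input do. Their part in the chromosome IV values was not tested.

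**Figure D3:**
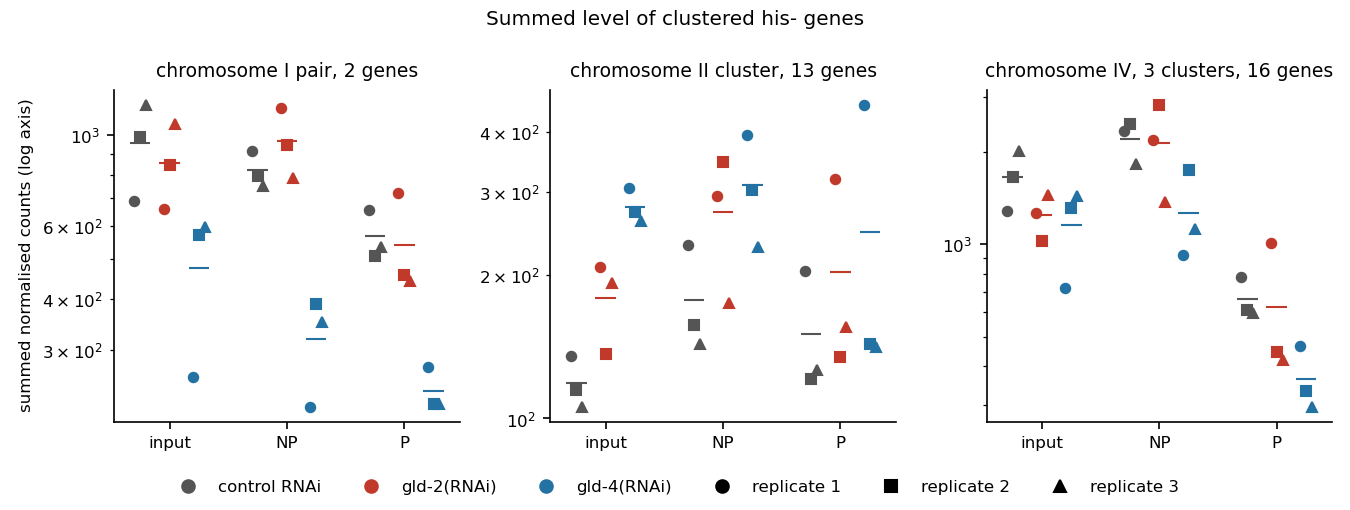
Summed normalised counts (y axis, logarithmic) of the his- genes of the chromosome I pair, the chromosome II cluster and 3 clusters of chromosome IV in input, NP and P (x axis). Colours give the RNAi treatment, shapes the replicate number and bars the mean of 3 libraries. The gld-4(RNAi) inputs lie above all controls for chromosome II (260 to 306 against 106 to 135) and below them for the chromosome I pair.

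**Figure D4:**
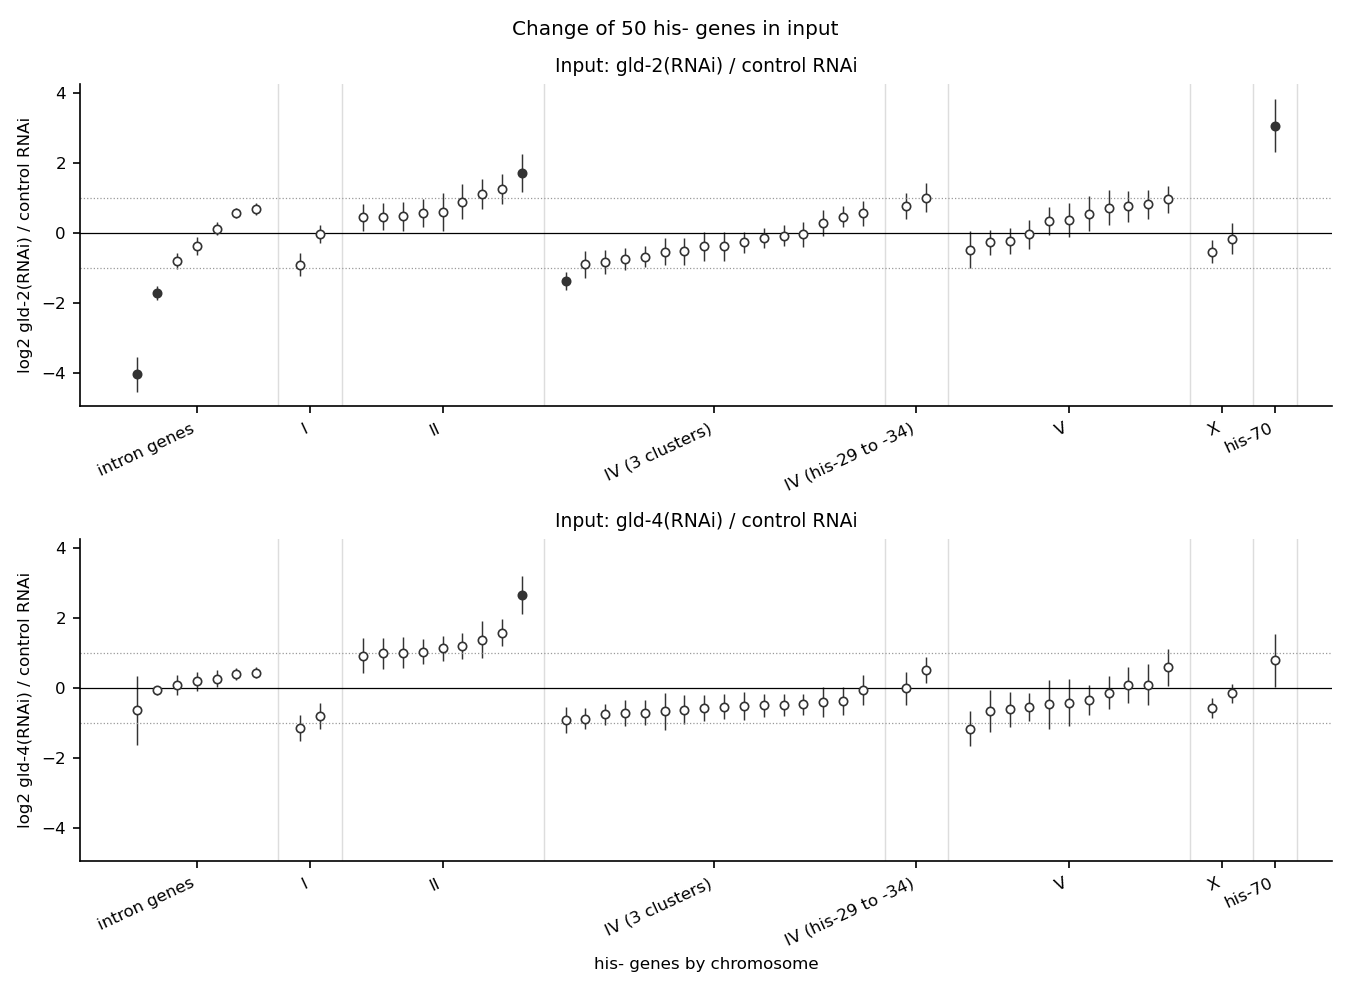
Log2 change in input of the 50 his- genes with at least 10 mean counts (y axis; bars, standard error), for gld-2(RNAi) above and gld-4(RNAi) below, by chromosome (x axis; genes ordered by value within a group, dotted lines at 2-fold). Filled points were called. Of the 9 chromosome II genes, 5 passed that limit only through the RNAi groups. The values of his-24 (-4.04) and his-70 (3.06) are the extremes of gld-2(RNAi).

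Compared with each other in input, gld-2(RNAi) and gld-4(RNAi) differed in 3 of 13 members: 2 were lower in gld-2(RNAi) and 1 was higher, beside 14.7% and 9.15% of all genes. At the lower limit 2 of 50 were lower and 0 higher, beside 11.3% and 8.92%. The H3.3-type genes his-72 (log2 -1.76, SE 0.26, edgeR adjusted p = 0.001748) and his-74 (log2 -1.03, SE 0.22, edgeR adjusted p = 0.008927) were the lower ones. The H2A gene his-68 was higher by 1.16 (SE 0.33, edgeR adjusted p = 0.026284). The his-24 value was -3.37 with an SE of 1.204 (edgeR adjusted p = 0.060100), and the wide error comes with the low replicate 1 of gld-4(RNAi). The his-74 and his-68 calls are near the limits: of 6 fits that left out a library, 3 kept the former and 2 the latter. Without replicate 1 of both groups the values were -1.17 for his-74, 0.98 for his-68, now under 2-fold, and -3.57 (SE 0.14) for his-24.

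In control RNAi, the comparison of P with NP gave the most calls among the members. The linker histone gene his-24 and the intron genes his-35, his-41 and his-71 were higher in P, and all 16 genes of 3 chromosome IV clusters and his-67 were lower. Of the 13 expressed members 5 were called lower in P and 4 higher, beside 14.4% and 18% of all genes. At the lower limit 19 of 50 were lower and 3 higher, beside 13.8% and 13.8% of 12173 genes, and the median log2 P/NP value was -0.79 when that of all genes was 0.14. These ratios come from TMM scaling, which sets most genes to no change, so they show how a gene stands among all genes of the fraction. When libraries were scaled to size alone, the median of all expressed genes moved from 0.05 to -0.31, and the members called were 6 lower and 1 higher in place of 5 and 4, and those of all genes 1911 and 682 in place of 1067 and 1334.

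The linker histone gene his-24 had 2084, 2264 and 2620 counts in control NP and 7533, 10694 and 11691 in P, a 4.84-fold higher level in P (log2 2.27, SE 0.22, edgeR adjusted p = 0.000162). The H2A variant his-35 had 740, 668 and 683 counts in NP and 1659, 1430 and 1410 in P (log2 1.27, SE 0.08, edgeR adjusted p = 4.8e-05). The H2B gene his-41 (log2 1.09) and the H3.3-type gene his-71 (log2 1.09) were also called higher, and the calls of his-35, his-41 and his-71 fell under 2-fold with scaling to size alone. Positive values under 2-fold were found for his-72 (log2 0.83, SE 0.13, edgeR adjusted p = 0.001270) and his-37 (log2 0.77, SE 0.11, edgeR adjusted p = 0.001054). The exception among these genes was his-74, with 5271, 5371 and 4398 counts in NP and 3356, 2346 and 2192 in P (log2 -0.76, SE 0.15, edgeR adjusted p = 0.004078). The fractions did not overlap for either his-72 or his-74. With scaling to size alone his-74 was called lower (log2 -1.15, SE 0.12) and his-72 was at 0.47 (SE 0.17).

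All 16 genes of 3 chromosome IV clusters were called lower in P, at log2 values of -1.96 to -1.37 and a median of -1.76. They are 4 genes each of H2A, H2B, H3 and H4, and they include his-57, which has annotated introns and overlaps another gene. As an example, the H2B gene his-48 had 286, 272 and 187 counts in NP and 111, 69.7 and 68.5 in P. The 4th cluster of that chromosome (his-29 to his-34) had no called gene: its 2 tested genes were at -0.01 and 0.17. On chromosome II none of 9 tested genes was called, at values of -0.95 to 0.16. On chromosome V 2 of 11 were called lower, the H3 gene his-6 (log2 -1.29) and the H4 gene his-5 (log2 -1.17). On chromosome I, his-67 was lower in P (log2 -1.51, SE 0.23, edgeR adjusted p = 0.001276) while his-68 was at -0.17 (SE 0.14, edgeR adjusted p = 0.290300). On chromosome X the H4 gene his-38 was higher in P, with 54.2, 32.9 and 38.4 counts in NP and 161, 88.9 and 102 in P (log2 1.54, SE 0.33, edgeR adjusted p = 0.007161), and the H3 gene his-40 was at 0.12. Each core type had members called lower and members above 0. Leaving out replicate 2 of control reduced the members' calls from 22 to 13, 11 lower and 2 higher, and those of all genes from 3359 to 2148, and at the higher limit his-41 and his-71 lost their calls without it.

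**Figure D5:**
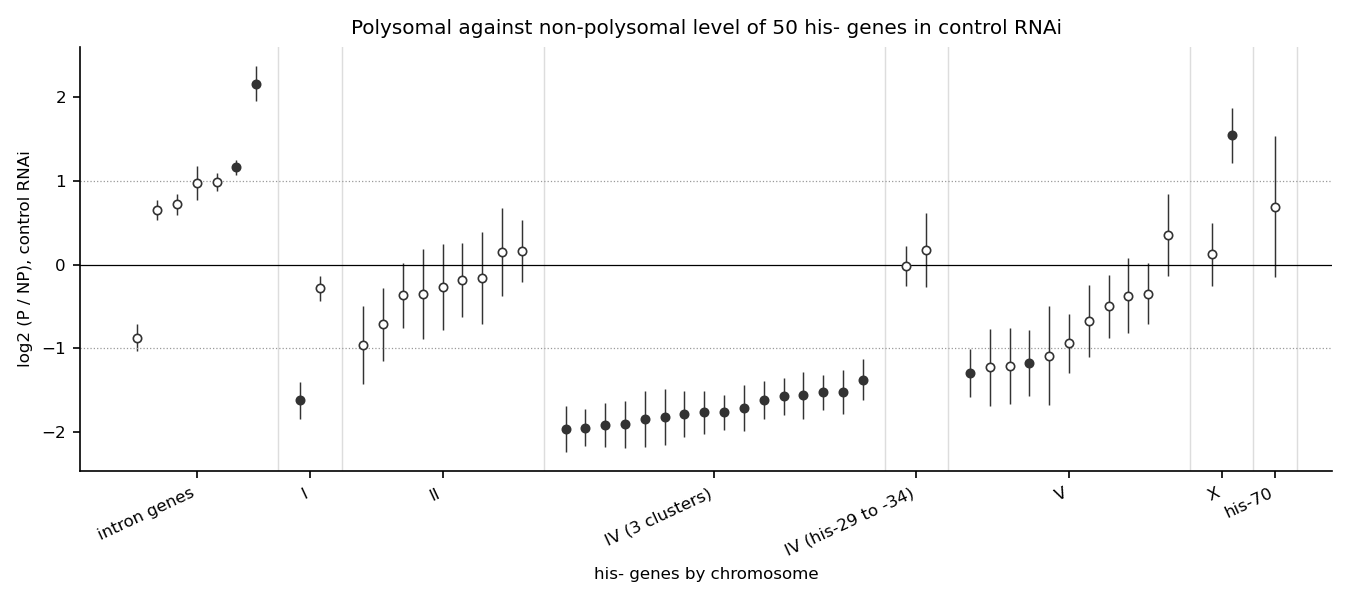
Log2 P/NP ratio in control RNAi (y axis; bars, standard error) of the 50 his- genes with at least 10 mean counts in input, grouped by chromosome (x axis; ordered by value within a group, dotted lines at 2-fold). Filled points were called. The 16 genes of 3 chromosome IV clusters all lie between -1.96 and -1.37, and 6 of 7 intron genes lie above 0.

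The gld-4 knockdown did not give a called P/NP change for any member relative to all genes. TMM scaling without a spike-in takes out a shift between P and NP that most mRNAs share. Such a shift could therefore not be seen here. The study, which corrected its fractions by the spike-in, reported that mRNAs in gld-4(RNAi) were shifted towards NP in general. Of 13 members 0 were called by edgeR's interaction test, beside 0.0135% of all genes higher and 0.0135% lower, 0 had an unadjusted p under 0.05, and DESeq2 called 0. At the lower limit 0 of 50 were called, beside 0% of 12173 genes in either direction, and 0 of the 50 had an unadjusted p under 0.05. Median values were -0.11 over the members and 0.02 over all genes. In gld-2(RNAi) at the lower limit the count was 1 of 50, his-74 again, beside 0.780% of genes that rose and 0.0986% that fell.

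Other genes of histone supply were followed by a list of 26: further linker histones, the variants HTZ-1 (H2A.Z) and the centromeric HCP-3 and CPAR-1, the stem-loop binding protein CDL-1, chaperones and the small-RNA factors that act on histone mRNA. Of these 21 were expressed. In gld-2(RNAi) input 9 fell and 1 rose, beside the 12.2% and 8.22% of all genes, with a median log2 change of -0.59 against 0.03 for all genes, and in gld-4(RNAi) input edgeR called 0 of 21 in either direction, DESeq2 also 0, with 6 at an unadjusted p under 0.05 and a median of 0.15. The share of all genes at that unadjusted p is not given, so the 6 are no result about the list. The test called 9 lower in NP and 8 lower in P of gld-2(RNAi), beside 11.3% and 8.68% of all genes, and 0 higher. Of genes chosen after their values were seen, htz-1 fell by 1.98 (SE 0.21, edgeR adjusted p = 0.000705) and cdl-1 by 1.49 (SE 0.16, edgeR adjusted p = 0.000771) on the log2 scale in gld-2(RNAi) input. The linker histone genes hil-3 and hil-7, chosen in the same way, fell by 3.22 (SE 0.43, edgeR adjusted p = 0.001556) and 4.22 (SE 1.08, edgeR adjusted p = 0.017628). In gld-4(RNAi) input they were at -0.54 and -0.69 with wide SEs of 0.79 and 1.39. In the other direction, 6 of the 21 had positive values in gld-2(RNAi) input. The small-RNA factor drh-3 was the 1 called higher (log2 1.08, SE 0.10, edgeR adjusted p = 0.000500). Past the p limit but under 2-fold were csr-1 (0.63), hmg-3 (0.63) and ego-1 (0.51). Oocyte and eggshell genes summed to 58000, 82800 and 107000 counts in gld-2(RNAi) input and to 194000, 236000 and 256000 in control. Their part in the lower values of his-72, his-74 and this list was not tested. Muscle genes overlapped, at 21200 to 31400 against 21900 to 33700, as did intestine genes at 105000 to 161000 against 124000 to 174000.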

How the data were processed

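Counts per gene were deposited by the authors. They trimmed adapters, mapped single reads to the WS220 genome with TopHat2 (unique alignments only) and counted exonic reads with featureCounts (Subread 1.4.0). The deposited comparison tables hold fold changes, p-values and 72 per-sample columns that were not used here; only gene names were read from them. Names were joined to counts by sequence ID. Gene structure came from the later WBcel235 annotation, so no positions are given. RNA of firefly luciferase was added to gradient fractions, but 0 features carry its name, so no spike-in scaling was used.

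Members and lists were chosen with earlier results of these data known. All members are accounted for; those with a mean of at least 100 normalised counts in input are named with values, those of at least 10 may be named, and the rest are given by ranges. Normalised counts are TMM-scaled, over 9 input and 18 gradient libraries separately. Tests were edgeR's robust quasi-likelihood F test on the 6 libraries concerned (12 for P/NP changes) over 7418 genes, or 12173 at the lower limit; the SE is the log2 change divided by the square root of F. Same-numbered libraries deviated together (correlations of 0.501 to 0.905, different numbers up to 0.870), so the number was tried as a block. Replicates differed beyond counting noise (chi-square per degree of freedom 44.9 to 149). Alternatives were the block, DESeq2, scaling to library size, other limits and leaving out libraries. The fits were tested on simulated counts. Tools were R 4.3.3 with edgeR 4.0.16 and DESeq2 1.42.0, and Python 3.11.15 with numpy 2.4.6, pandas 2.3.3 and, for plots, matplotlib 3.10.9.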

Additional observations from a re-analysis of the deposited data

Results flagged for a closer look

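The P/NP ratio of his-74 rose in gld-2(RNAi) by 1.23 on the log2 scale (SE 0.31, edgeR adjusted p = 0.041799), since its effect in NP (-1.07) and in P (0.22) differed in the interaction test over 12 libraries. With same-numbered NP and P libraries paired as a block, the value was 1.22 (SE 0.14, edgeR adjusted p = 0.000332). The block also moved the calls among all genes from 37 higher and 37 lower to 52 and 200. Without the block, the call was lost in most fits that left out a replicate and in the fit without a filter. Groups of 3 libraries are too small for a test of single outlying libraries.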

How the results depend on the processing

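The count of his- genes called, of 13 tested unless stated, was compared between the main analysis and its alternatives. The replicate block, which pairs same-numbered libraries, called 1 in place of 0 in input of gld-4(RNAi) and 2 in place of 1 in P of gld-4(RNAi), and changed no other count by over 1.5 times. Over all 7418 genes the block called 178 in place of 102 in that input and 120 in place of 43 in that P. DESeq2 gave the same 1 and 2 in those comparisons, beside 129 and 98 of all genes. Scaling to library size alone called 4 in place of 2 in P of gld-2(RNAi) and 0 in P of gld-4(RNAi). Over all genes it called 1142 in place of 1046 in the former and 17 in place of 43 in the latter. Without a filter, when all 67 were tested, 0 were called in P of gld-4(RNAi), 0 in the P/NP change of gld-2(RNAi) and 22 in P against NP of control. Over all genes, those fits called 30 of 20320, 49 of 22547 and 3518 of 20656. With a limit of 10 counts, when 50 were tested, the number was 5 in input of gld-2(RNAi), 1 in input of gld-4(RNAi) and 22 in P against NP of control. Of all 12173 genes, 2925, 137 and 3359 were called in the same comparisons. The 1 in input of gld-4(RNAi) was his-42, which passed that limit only through the RNAi groups. Among 39 pairs of gene and comparison with an adjusted p of at most 0.05, 0 of 432 alternative values had the other sign. Of 1089 values for the other 91 pairs, 101 had the other sign, 0 of these called.

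Leaving out libraries moved the counts as follows. They ranged from 0 to 1 in input of gld-4(RNAi) (main 0), 1 to 3 between the RNAi treatments (3), 2 to 4 in P of gld-2(RNAi) (2), 1 to 2 in NP of gld-4(RNAi) (2), 0 to 3 in P of gld-4(RNAi) (1) and 0 to 1 in the P/NP change of gld-2(RNAi) (1). Over all genes the ranges were, in that order, 0 to 153, 1545 to 2026 and 636 to 1301. The next were 56 to 131, 0 to 95 and 0 to 267. At the limit of 10 counts, an alternative chosen after seeing the data, the ranges were 3 to 6 in input of gld-2(RNAi) (5), 0 to 7 in input of gld-4(RNAi) (1), 1 to 9 between the RNAi treatments (2), 3 to 8 in NP of gld-2(RNAi) (4), 2 to 11 in P of gld-2(RNAi) (3), 0 to 6 in NP of gld-4(RNAi) (3), 0 to 13 in P of gld-4(RNAi) (1), 13 to 28 in P against NP of control (22) and 0 to 4 in the P/NP change of gld-2(RNAi) (1). Over all 12173 genes the ranges were, in the same order, 1855 to 3832, 0 to 420, 1492 to 3804 and 2057 to 3727. The rest were 904 to 3419, 69 to 308, 0 to 344, 2148 to 4116 and 0 to 734. At that limit the highest number of each range, for members and for all genes, came without replicate 1 of every group. The cause of these shifts was not tested.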
